A study of Bos taurus with 8 samples.

Results

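Morula cells are here the cells labelled as such on day 6 after fertilization, when the bovine embryo is a ball of blastomeres without a cavity. They were taken as every cell that the authors' cell table places in the class Morula, 58 of the 286 cells with values. All came from wildtype embryos (Bos taurus), 13 from the library numbered replicate 4 and 45 from replicate 6, and no other cell of the table was collected on day 6. The groups they were set against were also wildtype: 39 cells of day 7, 88 of day 8 and 101 of day 9. Polyadenylated RNA of single lysed cells was reverse transcribed, amplified with a barcode per cell and sequenced in pools, so a library is a pool of cells from an unstated number of embryos. Strain, sex and the way the embryos were made are not given for any cell. The age of a cell is that of the cell table, since the labels give each library as a mix of ages. The 2 libraries from injected embryos in the labels were not analysed here.

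In mammals the early embryo runs on RNA and protein stored in the egg until its own genome is switched on. A set of homeobox genes of the PRD class, among them ARGFX and DUXA, is known for a short burst of expression around that switch. In the morula the blastomeres flatten against each other, build cell junctions and become polarised, and outer cells start towards trophectoderm, the future placenta, while inner cells start towards the inner cell mass. SOX2 is known as an early factor of the inner cells, and CDX2, GATA3 and the keratins KRT8 and KRT18 as products of the outer ones.

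Expression is given as CPM, a gene's reads in a cell scaled so that each cell has the same total of assigned reads, recovered from the deposited log values. The 13 cells of replicate 4 held 25391 to 426098 reads each (median 216390) and a median of 8946 detected genes. The 45 cells of replicate 6 held 4603 to 679207 reads (median 77442) and a median of 6657 genes. The libraries together held 48 distinct barcodes, and the 13 barcodes of the replicate 4 cells also occurred among the morula cells of replicate 6. Levels across ages were compared on averages over the cells of a library and age. There were 2 such averages of day 6, 1 of day 7 (35 cells, replicate 4), 4 of day 8 and 3 of day 9. Those of days 8 and 9 pool the authors' classes of inner cell mass, trophectoderm, epiblast and primitive endoderm (hypoblast). The mix of these lineages differed between libraries, so later ranges and overlaps hold lineage as well as age. The averages of days 8 and 9 came from replicates 1, 2, 3 and 5, none of which gave day 6 cells. A change between day 6 and these days and a difference between the libraries therefore cannot be told apart. The exception is replicate 4, which held both day 6 and day 7 cells, and its own difference is therefore given beside the main results.

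The cells labelled Morula in replicate 6 were of unequal kinds, and some of them had high levels of oocyte or granulosa transcripts. In 13 of its 45 cells (28.9%) the summed level of 11 oocyte markers, such as the egg growth factors GDF9 and BMP15, was 606 to 3653 CPM. The next highest morula cell had 199 CPM, the highest cell of replicate 4 had 92.3 CPM and the highest of the 228 cells of later ages 149 CPM. These 13 cells were shallow, with 4603 to 47951 reads (median 19358), against a median of 227818.5 reads in the other 32 cells of replicate 6. Genes outside the 11 markers were high in the same cells. BTG4, which brings maternal mRNA to degradation, had a median of 3083 CPM and a maximum of 10194 in them, and at most 369 CPM in the other cells of replicate 6. The meiotic kinase MOS reached 1705 CPM, the oocyte importin KPNA7 2891 CPM, the translational regulator CPEB1 2435 CPM and the oocyte cap-binding protein EIF4E1B 6438 CPM. In replicate 4 none of these 4 genes exceeded 46.2 CPM in any cell. Of 12 measured genes of a wider oocyte list that were not among the 11 markers, 10 were over 4-fold higher in these cells on the scale log2(CPM + 10), where 10.5% of 4807 measured genes were higher and 4.68% lower. Of the 5 proposed morula markers 3 were over 4-fold lower in the mean of these cells. GJB5 had a median of 0 CPM in them and 374 CPM in the other 32, ARGFX 31.5 and 176 CPM, and HBG 63.6 and 213 CPM. The medians were 27.8 and 46.4 CPM for DUXA and 0 and 67.7 CPM for SOX2, which did not pass 4-fold in the mean. The keratins KRT8 and KRT18 had reads in all 13 cells. Their medians were 852 and 350 CPM there, against 561 and 483 CPM over all 45 cells, these 13 included. Their highest values were 1816 and 1404 CPM there, and 7865 and 10348 CPM in the other cells of replicate 6. Of 6 measured fibroblast genes 5 were also over 4-fold higher in them. The 8 fibroblast markers summed to 126 to 5866 CPM in these cells, 0 to 1977 CPM in the other 32 and 0 to 4719 CPM in cells of later ages, with PDGFRB and THY1 at 0 in all 13. The ribosomal RNA RN18S1 had a median of 86031 CPM in them and 24676 CPM in the other 32. The part of depth, fibroblast genes or ribosomal RNA in these values was not tested.

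A further 8 cells of replicate 6 stood out by ARGFX, DUXA, KLF17 and ZSCAN4, genes of genome activation. Their summed level was 970 to 7038 CPM in these 8 cells, at most 745 CPM in the remaining morula cells without high oocyte markers, and at most 351 CPM in cells of later ages. One cell passed both limits and is counted with the oocyte markers. Both limits were set after the values had been seen, and the 4 genes themselves are therefore a description. TMEM37, a small membrane protein related to calcium channel subunits, was not among them. It had a median of 5345 CPM and a maximum of 20547 CPM in these 8 cells, against a median of 222 CPM in the 24 cells left. The uridylyl transferase ZCCHC6, which tags RNA for decay, had medians of 1658 and 120 CPM, and the splicing-associated protein SON 3547 and 812 CPM. The trophectoderm genes were low here: 6 of 11 measured members were over 4-fold lower and none was higher, where 1.61% of 4596 genes were lower and 5.68% higher. KRT18 was at 201 to 453 CPM in the 8 cells and at 178 to 10348 CPM (median 974) in the other 24. GATA3 had medians of 40.2 and 211 CPM. The de novo DNA methyltransferase DNMT3A had medians of 42.3 and 218 CPM. Depth differed as well, with a median of 66214 reads in the 8 cells and 260007 in the 24. Abundant genes were not level either: ACTB had medians of 1564 and 7694 CPM and GAPDH 204 and 977 CPM, but TMSB10 4391 and 3613 CPM. The part of depth or of such a wider shift in the lower trophectoderm genes was not tested. GJB5 had medians of 95.1 and 466 CPM. HBG, the globin among the proposed morula markers, was the reverse, with medians of 1711 and 192 CPM. One of the 8 cells also carried genes of granulosa cells, the somatic cells around the egg. Its 12 granulosa and cumulus markers summed to 40844 CPM, including INHBA at 32825 and INHA at 5966 CPM, with HAS2, PTX3, GREM1 and HSD3B1 at 0, while 738 CPM was the highest sum among the 24 other cells and 2214 CPM in cells of later ages. FST, which is not on that marker list, was at 7270 CPM in the same cell. Whether the class Morula is right for the cells high in oocyte markers or for the cell with granulosa genes was not tested, and the averages of replicate 6 hold them unless said otherwise. The part of these 2 kinds of cell in the comparisons below is measured there by leaving them out.

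**Figure D1:**
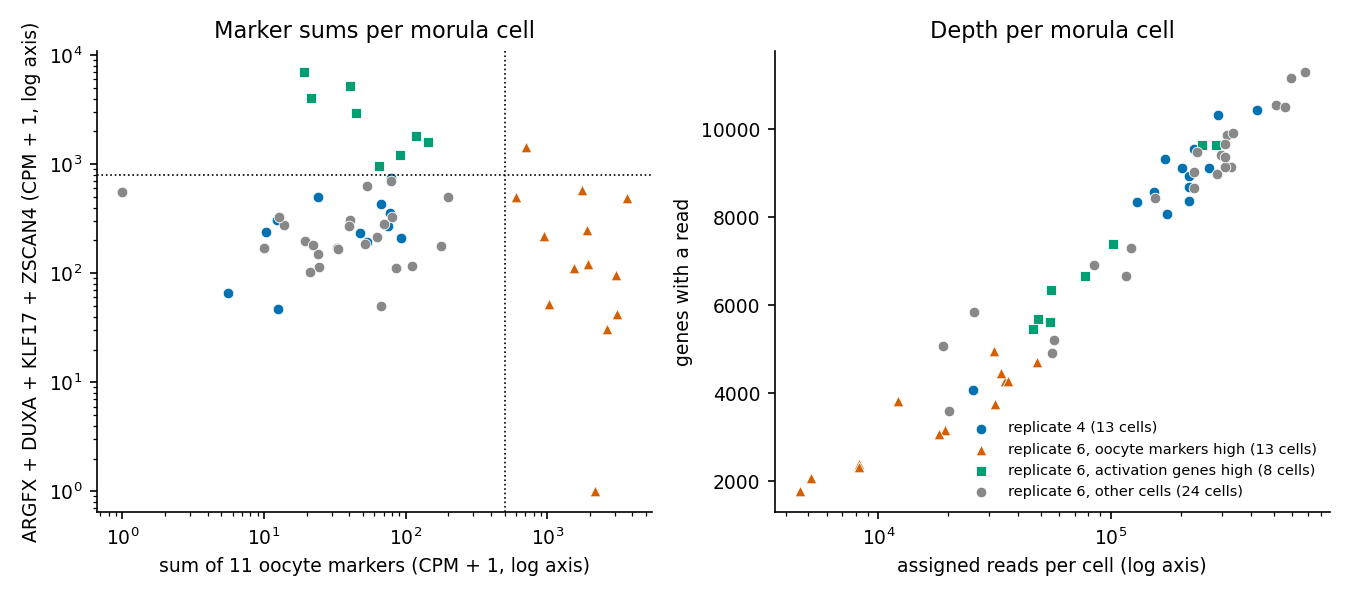
Left, each of the 58 morula cells by its summed oocyte markers and its summed ARGFX, DUXA, KLF17 and ZSCAN4 (both CPM + 1, log axes, with dotted lines at the limits of 500 and 800 CPM). Right, assigned reads (log axis) and genes with a read in the same cells. The 13 cells right of the vertical line are all from replicate 6 and hold at most 47951 reads, and the 13 cells of replicate 4 lie in the lower left field.

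The labelled class was checked against SOX2, ARGFX, DUXA, HBG and GJB5, which had been put forward as its markers from these same data. Of the 5, 4 were higher at day 6 than the mean of days 7, 8 and 9 and SOX2 was not. Since the list was drawn from these cells, the count is no independent support. ARGFX, a PRD-class homeobox factor, stood at 163 CPM in replicate 4 and 370 CPM in replicate 6. It was at 27.4 CPM on day 7, at 6.77, 0.188, 7.23 and 0 CPM in the day 8 averages of replicates 1, 2, 3 and 5, and at 0, 4.06 and 0 CPM in the day 9 averages of replicates 2, 3 and 5. Both day 6 values lay above every later one, and the log2 change was 3.79 (SE 0.34, adjusted p = 9.2e-05, limma). DUXA, its homeobox relative, was at 41.6 and 187 CPM on day 6, at 2.23 CPM on day 7 and at 1.36 CPM or less in each of the 7 averages of days 8 and 9 (log2 change 3.09, SE 0.37, adjusted p = 0.000977). Log2 changes are on the scale log2(CPM + 10), which understates the change of genes this low in later cells.

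HBG, a globin chain of the fetal red cell type, showed the largest change of all called genes with a symbol. Its day 6 averages were 1664 CPM in replicate 4 and 447 CPM in replicate 6, followed by 136 CPM on day 7 and at most 1.16 CPM in any average of days 8 and 9. The log2 change was 5.20 (SE 0.37, adjusted p = 1.5e-05). HBG belongs to a family of near-identical globin genes among which reads could be split, so its identity within the family is uncertain. HBA, another globin chain of red cells, had at most 28.5 CPM in any morula cell, and the 8 blood markers in the table summed to a median of 46.7 CPM in the cells of replicate 4 and 28.5 CPM in those of replicate 6. Of the 4 of them that were tested 1 was called higher: CSF1R, a receptor of macrophages, was at 60 and 21 CPM on day 6, at 8.43 CPM on day 7 and at 1.01 CPM or less afterwards (log2 change 1.97, SE 0.30, adjusted p = 0.00366).

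GJB5, a connexin of gap junctions, was at 585 and 322 CPM on day 6 and at 614 CPM on day 7. It was lower on day 8, at 233, 70.5, 123 and 54.0 CPM, and lowest on day 9, at 3.36, 28.4 and 3.91 CPM. Against the mean of the 3 later ages it was higher by 2.01 (SE 0.46, adjusted p = 0.0311), but its day 6 values did not stand above day 7. SOX2 was at 151 and 117 CPM on day 6, at 180 CPM on day 7, between 48.1 and 96.5 CPM on day 8 and between 98.9 and 175 CPM on day 9. The groups overlapped and the difference did not pass the test (0.20, SE 0.30, adjusted p = 0.779). These later averages mix lineages that differ in SOX2. On day 8 it was at 3.11 to 16.2 CPM in trophectoderm averages and at 72.4 to 167 CPM in those of the inner cell mass.

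**Figure D2:**
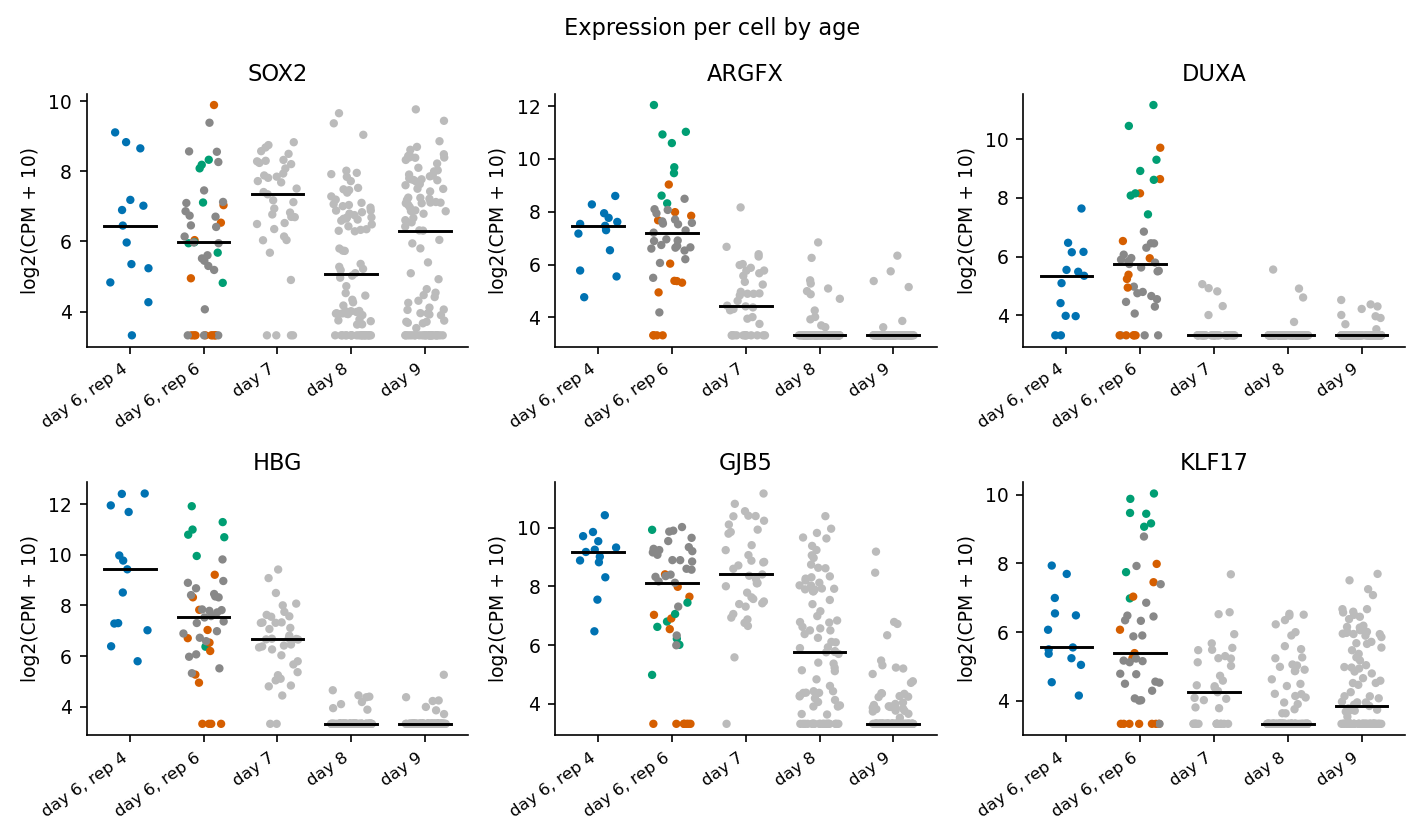
Each point is a cell and each bar the median of its column, as log2(CPM + 10), for 6 genes at day 6 (replicates 4 and 6 apart) and days 7, 8 and 9. At day 6, orange points are cells high in oocyte markers, green points cells high in activation genes, blue points replicate 4 and dark grey points the other cells of replicate 6. ARGFX, DUXA and HBG sit at the floor in most cells of days 8 and 9, and SOX2 overlaps at all ages.

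Across all 9872 tested genes, 323 (3.27%) differed between day 6 and the mean of days 7, 8 and 9 with an adjusted p under 0.05 in limma. Of these 188 (1.9%) were higher at day 6 and 135 (1.37%) lower. At an unadjusted p under 0.05 there were 1784 genes (18.1%), and the median log2 change of all tested genes was 0.05. In 307 of the 323 called genes both day 6 averages lay beyond all 8 later averages. Of all tested genes 9.39% had both day 6 averages above every later one, and 6.08% below. The count leaned on the larger library: without replicate 6 it was 14, all of them among the 323, with 11 higher (0.115%) and 3 lower (0.0313%), or 0.146% of 9583 tested. The count was 157 without replicate 2, and 192 without the library as a block. A fit with limma-voom on summed reads called 1397 genes (14.2%), 1025 higher (10.4%) and 372 lower (3.77%), and its counts for lists below are to be read against those shares. Without the 13 cells high in oocyte markers 393 genes (4.01%) were called, 249 higher (2.54%) and 144 lower (1.47%), of which 301 were shared with the 323. Without both unusual kinds of cell 361 (3.7%) were called, 219 higher (2.24%) and 142 lower (1.46%), of which 263 were shared.

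Genes higher at day 6 included enzymes and secreted proteins as well as nuclear ones. GLDC, which cleaves glycine in mitochondria, was at 169 and 126 CPM on day 6, 25.6 CPM on day 7 and at most 14.9 CPM later (log2 change 2.86, SE 0.33, adjusted p = 0.000633), and was among the 14 genes called without replicate 6. SDS, which breaks down serine, was at 25.0 and 92.4 CPM and at 1.30 CPM or less in every later average (2.44, SE 0.33, adjusted p = 0.00222). These averages came largely from a few cells, with medians over cells of 3.80 and 14.3 CPM. In replicate 6 SDS averaged 367 CPM in the 8 cells high in activation genes and 34.5 CPM in the 24 other cells. The ribonucleases BRB and RNASE1, close paralogs between which reads may be shared, were also high. BRB was at 342 and 337 CPM against 149 CPM on day 7 and 14 CPM or less later (3.57, SE 0.33, adjusted p = 9.2e-05). RNASE1 was at 267 and 88.7 CPM against 52.2 CPM on day 7 (2.82, SE 0.44, adjusted p = 0.00499). Within replicate 4, day 6 exceeded day 7 by 1.14 for BRB and 2.15 for RNASE1 on the log2 scale. The G protein subunit GNG2, at 246 and 191 CPM, was at 70.3 CPM on day 7 and at most 56.6 CPM later.

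Several of the genes with the largest positive changes were uneven between the 2 libraries. TMEM37 was at 147 CPM in replicate 4 and 1638 CPM in replicate 6, and at 144 CPM in one day 9 average, so replicate 4 barely stood above the later cells (3.05, SE 0.68, adjusted p = 0.0293, and 0.451 without replicate 6). SUPT4H1, a subunit of a transcription elongation factor, was at 230 and 1538 CPM, and at 784 CPM in replicate 6 without the cells high in oocyte markers. SPDYC, a kinase activator of the Speedy family, was at 135 and 738 CPM. TCHH, a structural protein of hair follicles, was at 34.1 and 181 CPM, with medians over cells of 6.93 and 41.7 CPM. In SUPT4H1, SPDYC and TCHH the averages of both libraries were above every later average. All 3 stayed called without the cells high in oocyte markers (adjusted p = 0.014 for SUPT4H1, 0.0114 for SPDYC and 0.00407 for TCHH). None of them, nor TMEM37, was called without replicate 6.

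The list of homeobox and other activation genes had 18 tested members, of which 4 were higher (ARGFX, DUXA, KLF17 and ZSCAN4) and 1 lower. Its median change was -0.04 against 0.05 for all tested genes. KLF17, a Krüppel-like factor of the early embryo, was at 72.6 and 155 CPM on day 6, 21.2 CPM on day 7 and 0 to 43.8 CPM later (2.04, SE 0.38, adjusted p = 0.0131). ZSCAN4, a zinc finger protein of early cleavage, was at 41.2 and 67.3 CPM, 27.1 CPM on day 7 and 5.38 to 15.4 CPM later (1.38, SE 0.29, adjusted p = 0.0224). Without both unusual kinds of cell ZSCAN4 was no longer called (adjusted p = 0.138), whereas ARGFX, DUXA and KLF17 were. Since 1 of these kinds was chosen by the summed level of these 4 genes, leaving it out lowers them by construction. This outcome is therefore a description and does not set ZSCAN4 apart from the others. KLF6, the member that was lower, was at 85.0 and 74.3 CPM on day 6 and at 184 CPM or more in each later average.

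The pluripotency list moved in both directions, with 3 of 21 tested members higher and 3 lower. DPPA3, a maternal factor that protects DNA methylation, was at 280 and 541 CPM, against 139 CPM on day 7 and 40.9 to 175 CPM later (1.77, SE 0.29, adjusted p = 0.006). Its replicate 6 value was 197 CPM without the cells high in oocyte markers, and the change was then 1.14 (adjusted p = 0.0263). The nuclear receptor ESRRB was at 152 and 112 CPM and at most 71.1 CPM later (1.64, SE 0.33, adjusted p = 0.018). NANOG, which marks the later epiblast, was at 9.99 and 21.9 CPM on day 6 and 7.42 CPM on day 7, then at 24.6 to 179 CPM on day 8 and 251 to 738 CPM on day 9 (-1.86, SE 0.46, adjusted p = 0.044). On day 7 NANOG was as low as on day 6, and so was the Nodal co-receptor TDGF1, which was below 1 CPM at both ages and reached 592 CPM on day 9. The DNA methyltransferase DNMT3B was at 68.5 and 77.9 CPM on day 6 and already at 307 CPM on day 7 (-2.17, SE 0.45, adjusted p = 0.0223). POU5F1, the central pluripotency factor, was at 126 and 111 CPM, within or close to its later range of 113 to 340 CPM, and was not called (adjusted p = 0.548).

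Trophectoderm and hypoblast genes were mostly lower or not called. Of 26 tested trophectoderm genes 2 were lower and none higher, with a median change of -0.46. KRT19, an epithelial keratin, had the most negative log2 change of all called genes with a symbol. It was at 21.3 and 19.6 CPM on day 6, 96.8 CPM on day 7, 329 to 2165 CPM on day 8 and 684 to 2914 CPM on day 9 (-3.98, SE 0.52, adjusted p = 0.00222). PTGS2, a synthase of prostaglandins, was the other one, at 47.9 and 13.9 CPM, with 57.9 CPM on day 7 and 118 to 731 CPM later. KRT18 was already at 1356 and 1467 CPM on day 6 and 1289 CPM on day 7, against 1499 to 20025 CPM later, and was not called (-0.93, SE 0.59, adjusted p = 0.452). GATA3 was at 181 and 152 CPM and not called either (adjusted p = 0.452). CDX2 was at 12.6 and 46.6 CPM on day 6 and 5.48 to 52.0 CPM later, and the sign of its small difference (0.10, SE 0.46) changed with the processing. Later averages of KRT18, GATA3 and CDX2 mix lineages. Trophectoderm averages of days 8 and 9 had 6065 to 26199 CPM of KRT18, 389 to 642 of GATA3 and 35.3 to 72.9 of CDX2. In averages of the other classes of these days the ranges were 267 to 1895, 35.6 to 179 and 0 to 9.29 CPM.

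Of 19 tested hypoblast genes, those of the layer that will line the yolk sac, 5 were lower and 1 higher, with a median change of -0.65. The transcription factor HNF4A was nearly absent, at 2.08 and 0.901 CPM on day 6, with 36.7 CPM on day 7 and 55.7 to 144 CPM later (-2.88, SE 0.32, adjusted p = 0.000449), and was also called without replicate 6 (adjusted p = 0.0211). The apolipoprotein APOA1 was at 24.6 and 10.2 CPM and APOE at 6.05 and 18.9 CPM, both below every later average. The adhesion protein FLRT3 was at 3.79 and 3.44 CPM on day 6 and 73.9 CPM on day 7, a difference of -2.60 within replicate 4. Fibronectin, FN1, was at 1157 and 693 CPM against 971 to 2954 CPM later, so the groups overlapped. NID2, a basement membrane protein, was the higher one (43.8 and 61.9 CPM, adjusted p = 0.0461). GATA6, an early hypoblast factor, was already at 348 and 281 CPM and was not called (adjusted p = 0.733).

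**Figure D3:**
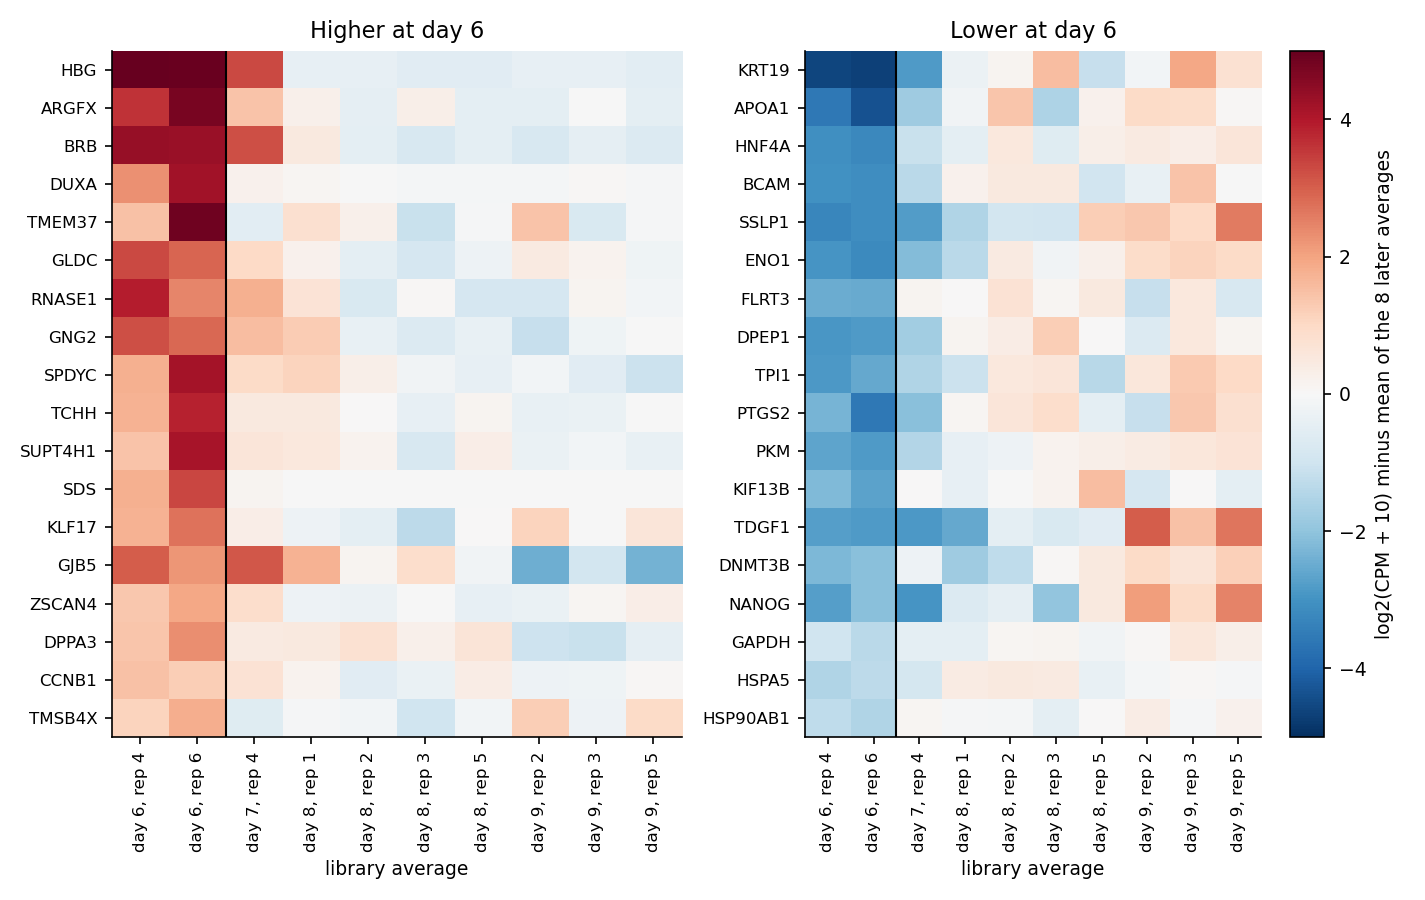
Each column is a library average and each row a gene, coloured by log2(CPM + 10) minus the mean of the 8 later averages (colours end at 5 in either direction). The 2 day 6 columns, left of the black line, are red for all 18 genes on the left and blue for all 18 on the right, with TMEM37, SPDYC and SUPT4H1 darker in replicate 6, and the day 7 column already shares the red of HBG, BRB and GJB5 and the blue of TDGF1 and NANOG.

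Genes of glycolysis were lower at day 6 in 5 of 20 tested members and higher in 1, with a median of -0.34. PKM, which makes pyruvate, was at 152 and 132 CPM on day 6, 355 CPM on day 7, 738 to 1217 CPM on day 8 and 1336 to 1575 CPM on day 9 (-2.38, SE 0.22, adjusted p = 9.7e-05), and was called without replicate 6 (adjusted p = 0.00654). Enolase, ENO1, was at 177 and 149 CPM, 306 CPM on day 7 and 551 to 3076 CPM later (-2.54, SE 0.35, adjusted p = 0.00233). The triosephosphate isomerase TPI1 was at 7.25 and 11.4 CPM and 34.0 CPM on day 7. GAPDH was at 977 and 774 CPM against 1387 CPM or more later (-1.04, adjusted p = 0.023), and the hexokinase HK1 at 37.7 and 55.3 CPM against 98.7 CPM or more. The aldolase ALDOC went the other way, at 103 and 64.5 CPM against at most 45.8 CPM (1.61, SE 0.28, adjusted p = 0.00949). No member of the oxidative phosphorylation list was called among 38 tested, with 2 at an unadjusted p under 0.05 and 4 called by limma-voom, all higher.

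In the list of heat shock, redox and p53 genes 5 of 33 tested members were lower and none higher, with a median of -0.24. These 5 were 4 chaperones and a peroxidase. HSP90AB1 was at 1494 and 1271 CPM on day 6, 3799 CPM on day 7 and 2576 to 4703 CPM later (-1.40, SE 0.19, adjusted p = 0.00233). HSP90AA1, HSP90B1 and HSPA5, the last 2 chaperones of the endoplasmic reticulum, were lower at day 6 by 1.10, 1.21 and 1.21 on the log2 scale. The peroxidase PRDX1 was at 977 and 809 CPM and at 1819 CPM or more later (-1.84, SE 0.25, adjusted p = 0.00233). In the lipid and sterol list 1 of 28 was lower, CYP51A1 of cholesterol synthesis (36.4 and 7.95 CPM against 68.6 CPM or more).

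Junction and polarity genes changed one by one. Of 28 tested polarity and compaction genes TMSB4X alone was called, an actin-binding peptide that was at 2665 and 4417 CPM on day 6 and 806 CPM on day 7 (1.51, SE 0.33, adjusted p = 0.0242); one day 9 average, 2953 CPM, was above replicate 4. Among 25 tight junction and desmosome genes CGNL1, a cingulin relative, was higher (39.9 and 27.7 CPM against at most 8.03 CPM, adjusted p = 0.00499), as was the claudin CLDN10 (100.1 and 76.3 CPM, adjusted p = 0.0382). The adhesion protein EPCAM was lower (195 and 189 CPM against 289 CPM or more, adjusted p = 0.0201). Of 23 Hippo genes, which relay cell position in the morula, none was called, with 6 at an unadjusted p under 0.05 and 2 by limma-voom. Of 16 FGF and ERK genes the feedback phosphatase DUSP6 (6.47 and 8.23 CPM against 13.1 CPM or more) and the early response gene FOS (24 and 104 CPM against 98.5 CPM or more, with overlap) were lower.

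In the cell cycle lists CCND2, a cyclin of the G1 phase, was lower among 31 tested G1 and S phase genes (152 and 103 CPM against 272 CPM or more, adjusted p = 0.0111). Of 34 G2 and M phase genes CCNB1 and AURKA were higher. CCNB1, the mitotic cyclin, was at 541 and 462 CPM against 125 to 322 CPM later (1.19, SE 0.26, adjusted p = 0.023). AURKA, a spindle kinase, was at 473 CPM in replicate 4 and 2391 CPM in replicate 6, where it was 388 CPM without the cells high in oocyte markers. It was not called without those cells (0.65, adjusted p = 0.188). None of the 50 ribosomal protein genes was called (13 at an unadjusted p under 0.05, and 3 by limma-voom, all lower). None of 29 nucleolar genes was called (5 at an unadjusted p under 0.05, and 7 by limma-voom, all higher).

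Against day 7 alone no gene was called among 9872, with 649 (6.57%) at an unadjusted p under 0.05. This comparison had 2 averages against 1. Other fits called 0 to 33 genes, the most in limma-voom. HBG, ARGFX and DUXA had changes of 2.88 (SE 0.52), 2.60 (SE 0.48) and 2.73 (SE 0.52), each with an adjusted p of 0.159. Within replicate 4, where both ages shared a library, HBG was higher at day 6 by 3.52, GLDC by 2.33, ARGFX by 2.21 and DUXA by 2.08 on the log2 scale. There FLRT3 differed by -2.60, APOE by -2.45, KIF13B, a kinesin, by -2.21 and DNMT3B by -2.01. The averages of KRT18 (0.07), GJB5 (-0.07) and SOX2 (-0.24) were close to level. Medians over the cells at days 6 and 7 were less so. They were 374 and 744 CPM for KRT18, 567 and 410 CPM for GJB5, and 77.4 and 160 CPM for SOX2. These differences within 1 library have no replicate.

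The morula libraries also differed from each other. Of 4243 genes with 50 CPM or more in one of them, 178 (4.2%) differed by 4-fold or more on the log2(CPM + 10) scale, 176 higher in replicate 6 (4.15%) and 2 lower (0.0471%). BTG4 (0.708 and 1154 CPM in replicates 4 and 6), EIF4E1B (0 and 510 CPM) and INHBA (1.45 and 809 CPM) had the largest log2 differences with a known symbol, of 6.76, 5.70 and 6.16. The INHBA level was mostly that of the cell with granulosa genes: without it replicate 6 had 81.4 CPM and a difference of 3.00. The lower ones were CHI3L2, a chitinase-like protein, at 123 and 16.1 CPM, and the cytokine MIF, at 56.7 and 5.58 CPM. Without the 13 cells high in oocyte markers 60 of 4046 genes (1.48%) differed that much, 1.46% higher and 0.0247% lower in replicate 6. INHBA, FST and INHA led these. Without the 1 cell with granulosa genes as well, their log2 differences were 2.63, 0.88 and 1.44, and 53 genes passed 4-fold.

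Variation between cells was measured as the squared coefficient of variation (CV) of each gene within a library, and its excess over the trend with mean level. Of 3038 genes with 50 CPM or more in both libraries, 29 (0.955%) were among the 5% of largest excess in both, where each library on its own had 152 (5.0%). The median CV was 0.50 in replicate 4 and 0.95 in the shallower replicate 6. With each cell thinned to 20000 reads it was 0.75 and 1.02, and 20 of the 29 genes were among the 29 then variable in both. Without the cells high in oocyte markers the median CV of replicate 6 was 0.73, and 36 of 3141 genes (1.15%) were then variable in both, with 158 (5.03%) in each. Of the 29 genes, 22 remained among those 36.

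KRT8 and KRT18, partner keratins of simple epithelia, were among the most variable genes in both libraries. KRT18 ranged from 87.3 to 8060 CPM in the 13 cells of replicate 4 (median 374) and from 104 to 10348 CPM in the 45 cells of replicate 6 (median 483). KRT8 ranged from 144 to 12458 CPM (median 640) and from 83.4 to 7865 CPM (median 561). Most cells of replicate 4 thus lay far below its highest one. The 2 genes moved together, with a Spearman rho of 0.80 over 13 cells and 0.86 over 45, and 0.73 and 0.78 with each cell thinned to 20000 reads. GATA3 followed KRT18 more loosely (rho 0.40 and 0.53, and 0.35 and 0.39 at 20000 reads). The excess of GATA3 itself was small (0.24 and -0.03).

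HBG was also variable in both libraries, from 45.6 to 5492 CPM in replicate 4 (median 680) and from 0 to 3876 CPM in replicate 6 (median 174). In replicate 4 the gene had reads in 13 of 13 cells, so the spread was in level. SOX2 was variable in replicate 4 and less so in replicate 6, with an excess of 0.79 and 0.40. It ranged from 0 to 541 CPM (median 77.4) and from 0 to 936 CPM (median 52.7). SOX2 and KRT18 had a rho of -0.30 over the 13 cells and 0.10 over the 45, weak in these sparse counts. SOX2 and GJB5 had a rho of 0.76 and 0.50, and of 0.29 in replicate 6 without the cells high in oocyte markers. At 20000 reads per cell it was 0.52 and 0.31. NANOG was low in nearly every morula cell (medians of 0 CPM in both libraries, highest 92.5 and 248 CPM).

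ARGFX was among the most variable genes in replicate 6 and not in replicate 4. It ranged from 17.2 to 378 CPM over the 13 cells of replicate 4 (CV 0.64, excess 0.26) and from 0 to 4204 CPM over the 45 of replicate 6 (CV 2.01, excess 0.84). DUXA reached 189 CPM in replicate 4 and 2282 CPM in replicate 6. The 2 homeobox genes had a rho of 0.74 over the 13 cells and 0.68 over the 45, but 0.27 and 0.54 at 20000 reads per cell. ARGFX and KRT18 had a rho of -0.42 and -0.01, and of -0.25 in replicate 6 without the cells high in oocyte markers. Among the 8 cells high in activation genes KRT18 did not exceed 453 CPM.

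**Figure D4:**
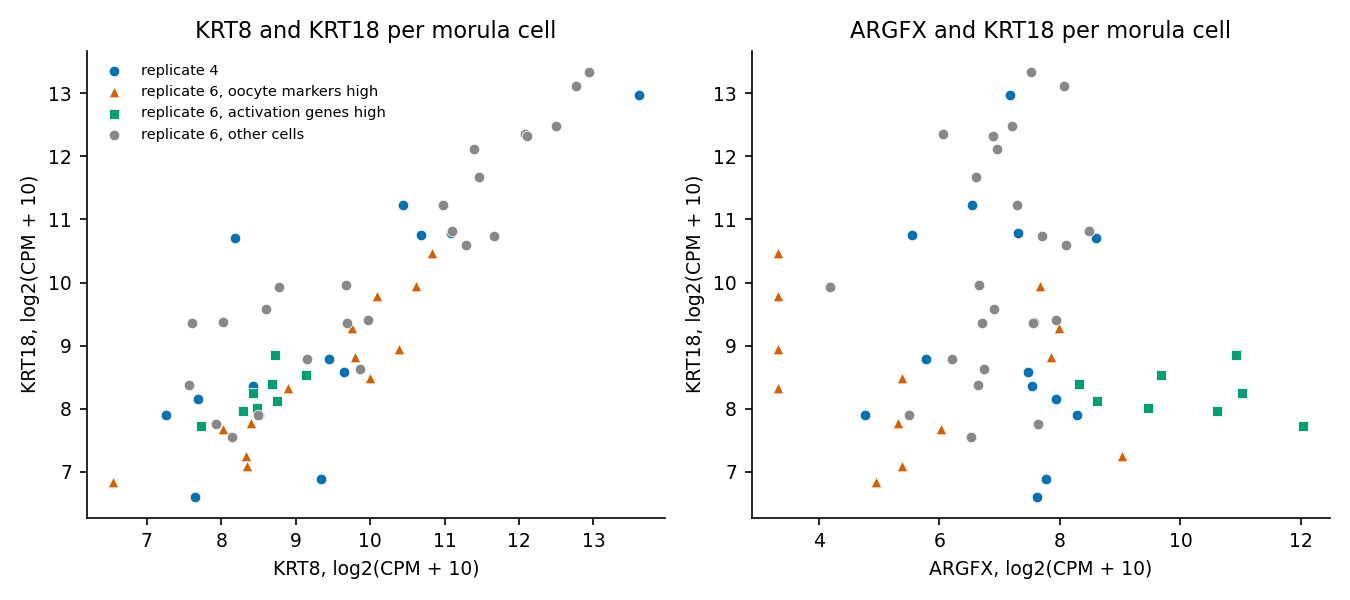
Each point is 1 of the 58 morula cells, with KRT18 against KRT8 on the left and against ARGFX on the right, as log2(CPM + 10). KRT8 and KRT18 rise together in both libraries, and the 8 cells high in activation genes (green squares) lie at the right of the second panel at 453 CPM of KRT18 or less.

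Cell cycle genes spread as well, mostly in replicate 4. Of 27 measured G2 and M phase genes 8 were variable in replicate 4 and 4 in replicate 6, with AURKA, the kinase subunit CKS2 and the spindle protein NUSAP1 in both. AURKA ranged from 80.2 to 1463 CPM in replicate 4 and from 61.8 to 20021 CPM in replicate 6, where the highest values came from the cells high in oocyte markers. Without those cells 2 of 28 measured members were variable in replicate 6, the chromosome protein SMC4 and CENPE, where 5.03% of all measured genes were. SMC4 was then the 1 member of that list variable in both. AURKA and CKS2 had a rho of 0.76 in replicate 4 and of 0.15 in replicate 6 without those cells. Other genes variable in both libraries were RECQL5, a DNA helicase (5.73 to 2512 CPM in replicate 4 and 0 to 2098 in replicate 6), the sterol enzyme HMGCS1 (11.4 to 602 and 0 to 745 CPM), the p53 regulator MDM2 (0 to 403 and 0 to 2164 CPM) and ZCCHC6 (0 to 744 and 0 to 5170 CPM). The glucose transporter SLC2A3 joined them without the cells high in oocyte markers. DPPA3, variable in both over all cells, had an excess of -0.08 in replicate 6 without those cells.

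**Figure D5:**
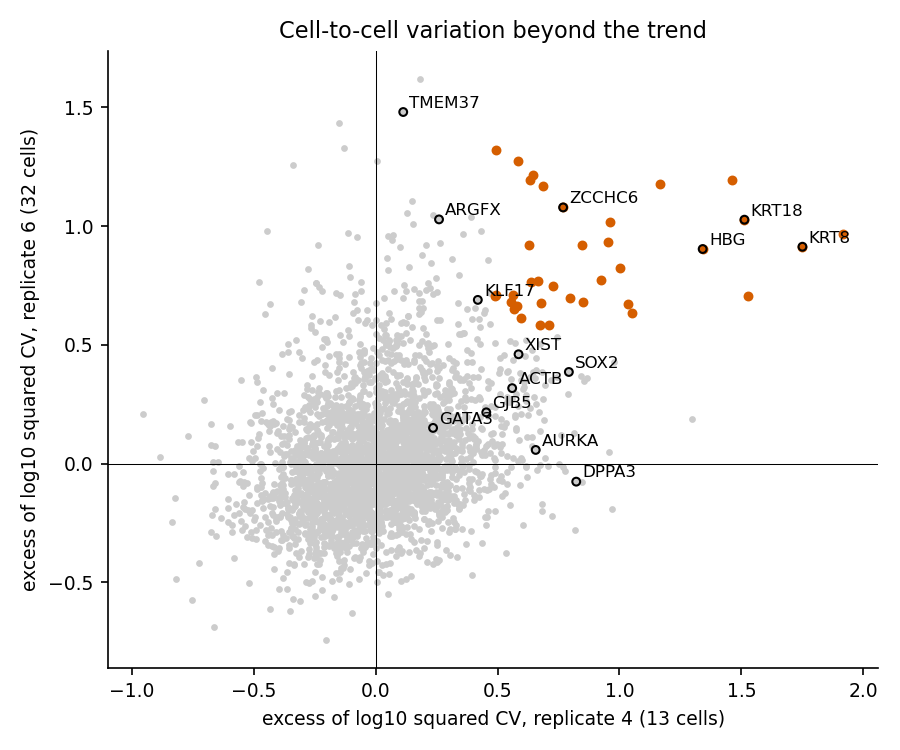
Each point is a gene, by the excess of its log10 squared CV over the trend in replicate 4 (13 cells) and in replicate 6 without the cells high in oocyte markers (32 cells). Orange points are the 36 genes among the 5% of largest excess in both. KRT8, KRT18 and HBG lie far out in both directions, ARGFX and TMEM37 only upward, and SOX2 and DPPA3 mainly to the right.

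The most abundant transcripts of morula cells, ribosomal proteins aside, were those of the cytoskeleton and general metabolism. ACTB averaged 9742 and 5392 CPM in replicates 4 and 6, against 13621 to 20678 CPM on day 8. TMSB10 was at 5169 and 5149 CPM, and CKB, the brain-type creatine kinase, at 5232 and 3026 CPM. The claudin CLDN6 was at 3002 and 1990 CPM. In the cells high in activation genes ACTB had a median of 1564 CPM, and in the other 24 cells of replicate 6 of 7694 CPM.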

How the data were processed

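Expression of 18825 genes was deposited by the authors on a natural log scale, as ln(1 + v) with v a gene's share of a cell's total scaled to 10000. Per the submitters' processing notes Trim Galore, HISAT2, featureCounts and Seurat were used with the build ARS-UCD1.2; neither their settings nor any use of molecular identifiers is stated there. All values in each cell were whole multiples of 1 read (tolerance 0.1), which gave back each cell's reads. The deposited cell table (288 cells, 2 without values) gives class and age. How classes were assigned is not given.

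CPM were averaged over cells of a library and age (3 or more cells) and fitted as log2(CPM + 10) with limma 3.58.1 in R 4.3.3 (statmod 1.5.0, trend, robust), with age as factor and library as random block, because replicates 2 to 5 each gave averages of 2 ages (consensus correlation 0.318). Genes at 10 CPM or more in 2 or more averages were tested, and those with a Benjamini-Hochberg adjusted p under 0.05 called. Every adjusted p is from this fit or an alternative of it. Cells are not replicates, and labels name no embryo, so a p-value reflects how libraries vary among themselves, possibly for technical reasons. That spread also holds their mix of lineages. Among classes of 3 or more cells, day 8 had only trophectoderm in replicate 3 and only inner cell mass in replicate 5. Kinds of cell within the morula (oocyte markers of 500 CPM or more, activation genes of 800 CPM or more), the 2 libraries, and pairs of genes across cells were described without a test (Python 3.11.15, statsmodels 0.14.6 for the lowess trend). Doublets were not called. Scripts were tested on simulated data.

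The 29 gene lists (750 members, 704 in the table) and the members were chosen with earlier results of these data known. Named genes are the 5 markers, at most 12 genes per direction, by size of change, whose day 6 averages lay beyond all later ones, list members of smallest adjusted p or highest level, the 20 most abundant, the 15 most variable, those most unlike between libraries or closest in profile to a marker, and SOX2, NANOG, POU5F1, CDX2, GATA3, GATA6, KRT18 and XIST. Those 2 limits, and genes named outside this rule, were chosen after their values were seen. Of the symbols 22 were damaged into dates and not used. Not every variable gene is reported here.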

Additional observations from a re-analysis of the deposited data

Results flagged for a closer look

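Within the 4 averages of day 8, against which the morula cells were compared, 6 of 64 genes had one average far from the other 3 by Dixon's 95% limit, where chance gives about 1 in 20. That rate holds for like averages, and these differ in their mix of inner cell mass and trophectoderm cells. In replicate 1 GNG2 was high at 56.6 CPM (others 7.25 to 11.6) and TDGF1 low at 2.46 CPM (others 33.1 to 42.5). SDS and CSF1R were at 0.116 and 1.01 CPM there with the others at 0. With such ties any value above 0 passes the limit, so SDS and CSF1R are not shown to be far off. TMSB4X was low in replicate 3 at 621 CPM (others 1120 to 1205), an average of 4 cells. HSPA5 was low in replicate 5 at 415 CPM (others 728 to 768), an average of 6 cells. The 2 morula libraries are too few for such a check.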

How the results depend on the processing

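For morula (day 6) versus the mean of days 7, 8 and 9 (323 called), the count was 192 with no replicate block, 1397 in limma-voom, 183 at 20000 reads per cell, 59 with 2 or more cells per average, 546 in cells of 50000 or more reads, 526 against days 8 and 9 only, and 14 to 336 leaving out 1 of replicates 1, 2, 3, 5 and 6 (14 without replicate 6, 157 without replicate 2). Without replicate 4 no day 7 is left and no value could be had. Higher genes made up 58.2% of the calls, but 36.2% with a pseudocount of 1 CPM, 75.4% with 50 CPM, 79.4% with no filter, 45.6% with a filter of 50 CPM, 73.4% in limma-voom and 70.2% against days 8 and 9 without replicate 4. Against day 7 (0 called) the count was 5 with a pseudocount of 50 CPM, 27 with no filter, 13 with the mean of log2 values, 33 in limma-voom, 3 in the fit of 7 classes, 2 with 2 or more cells, 9 in cells of 50000 or more reads, and 0 to 1 leaving out a replicate. Over 64 named genes and all alternatives, 1146 results kept their side of the threshold, 234 lost their call and 8 changed sign. All 8 were CDX2 (0.10), at -0.12 in limma-voom, -0.71 at 20000 reads, -0.02 and -0.07 without replicates 2 and 5, -0.49 without replicate 6, -0.10 in cells of 50000 or more reads, -0.14 without cells high in oocyte markers and -0.017 without both kinds. Leaving out 1 replicate gave CDX2 -0.49 to 0.34. Variable genes in both libraries (29) were 44 from 20 CPM and 18 from 100 CPM. Genes 4-fold apart between libraries (178) were 60 without cells high in oocyte markers, 179 without the cell with granulosa genes, 53 without both and 36 with a pseudocount of 50 CPM. For ARGFX and DUXA rho was 0.27 in replicate 4 and 0.54 in replicate 6 at 20000 reads and 0.76 in replicate 6 without cells high in oocyte markers. KRT8 and KRT18 had 0.73 and 0.78 at 20000 reads, and ARGFX and KRT18 0.015 in replicate 6. The causes were not tested. Alternatives on cell kinds, depth, RN18S1 and days 8 and 9 were chosen after seeing the data. Cells under 20000 reads (8 in replicate 6) limit what single cells show.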

Other observations

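In the 8 cells high in activation genes 2 of 28 measured heat shock, redox and p53 genes were over 4-fold higher than in the 24 other cells of replicate 6 and 4 lower, where 5.68% and 1.61% of all measured genes were. The values of single genes below were chosen after they were seen. DDIT3, a factor of the unfolded protein response, had a median of 411 CPM in the 8 cells and 33.4 CPM in the 24 other cells. GADD45A, a DNA damage response gene, had medians of 618 and 81.9 CPM, and the cell cycle inhibitor CDKN1A 66.1 and 7.37 CPM. In replicate 4 the highest cell had 158, 94.5 and 29.2 CPM of the 3 genes. The mitochondrial chaperonin HSPD1 and the small heat shock protein HSPB1 were over 4-fold lower in the 8 cells, HSPB1 with a median of 438 CPM against 2843 CPM. PEG3, an imprinted gene, had medians of 212 and 10.1 CPM. XIST, the RNA of the inactive X chromosome, was at 56.0 and 132 CPM in the 2 day 6 averages and between 1.53 and 295 CPM later, and ranged from 0 to 185 CPM over the cells of replicate 4 and from 0 to 1197 CPM over those of replicate 6. The sex of the cells is not labelled.

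Over 16 library and class averages, the gene closest to DUXA was SDS (Pearson r 0.996), to HBG CSF1R (0.98), to ARGFX the unnamed LOC538435 (0.96), to GJB5 the RAS effector homolog RASSF8 (0.96) and to SOX2 the ETS factor SPIC (0.93). The averages share libraries and depth, and the 2 morula averages carry much of these correlations.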
